A study of Caenorhabditis elegans with 12 samples.

Results

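Lack of food was examined in whole L1 larvae of Caenorhabditis elegans kept at 500 mM NaCl, by setting 3 unfed against 3 fed libraries, which are 6 of the 12 libraries of the series. The members were chosen by their titles, which name high NaCl with or without food. All larvae were of the wild-type strain N2, with no allele or transgene, and all had been plated as bleached embryos at 25 °C and collected 24 h later. The fed high-salt group had the bacterium OP50 on plates with 500 mM NaCl, and the unfed high-salt group had 500 mM NaCl and no bacteria. The fed and unfed low-salt groups, of 3 libraries each, had 100 mM NaCl with and without OP50, and they serve here to ask whether the effect of food differs between the salt levels. Each library pools whole larvae of 1 strain, so all tissues are mixed, and fewer cells of a type cannot be told apart from less RNA per cell. The replicates A, B and C are separate biological samples per the labels.

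Newly hatched C. elegans larvae wait in the first larval stage when no food is present, and high salt also halts their development. Fat stores feed such waiting larvae through oxidation of fatty acids in mitochondria and in peroxisomes, the organelles that shorten very long chains. In this animal the peroxisomal cycle of oxidase, hydratase, dehydrogenase and thiolase also trims the side chains of ascarosides, the pheromones that signal crowding and starvation.

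The 6 high-salt libraries were unequal in quality, and the inequality followed transcript length. They held 5613260 to 20659851 reads on genes, of which rRNA genes took 9.13% to 81.8% in fed and 6.32% to 18.2% in unfed larvae, with the extreme in fed C. In fed B rRNA genes took 39.9%. Outside rRNA genes fed C held 3167905 reads and unfed A 4779596, against 12410852 to 16039460 in the other 4 libraries. In unfed A 38.6% of reads aligned. Among the 6 libraries the first principal component of log2 CPM, counts per 1000000 reads after scaling of the libraries, with 53.2% of the variance, set unfed A at 172 apart from the others at -72.2 to 6.03, and the second, with 16.4%, set fed C at -92.8 apart. For 7705 genes that averaged 10 CPM or more and have an annotated transcript length, cut into 4 groups by that length, the group of longest transcripts stood at a median of -0.65 (log2, against each gene's median over the 6 libraries) in unfed A, and the shortest group at -0.02. In fed C the shortest group stood at -0.64 and the longest at 0.23, while the other 4 libraries stayed between -0.03 and 0.14 in every length group. Among the shortest, 16.4% of genes had unfed libraries all above the fed ones and 0.933% all below, and among the longest 0.987% and 11.01%. Some calls and list medians with unfed A or fed C left out are given below. The part of length in the results was not tested, nor was the cause of what these libraries show. The library kit did not keep the strand, so reads of overlapping and antisense genes cannot be told apart.

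**Figure D1:**
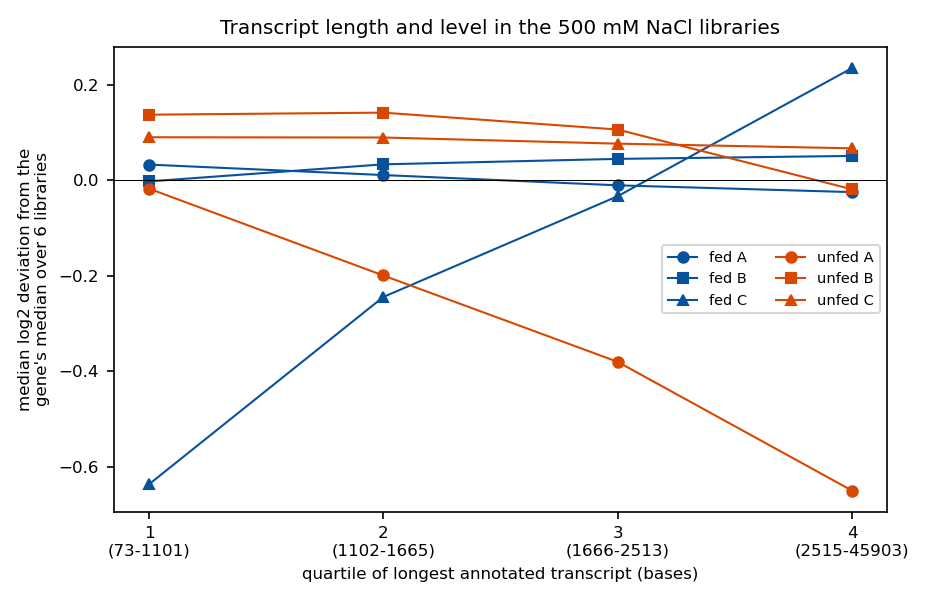
Median log2 deviation of a gene from its own median over the 6 high-salt libraries (y axis), by group of the longest annotated transcript length in bases (x axis), with 1 line for each library, blue for fed and orange for unfed. Unfed A falls to -0.65 in the longest group and fed C rises from -0.64 in the shortest to 0.23, while the other lines stay near 0.

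Without food at 500 mM NaCl, 4 genes of peroxisomal fatty-acid oxidation, acox-1.1, maoc-1, daf-22 and pmp-2, and 9 others rose, and 1 gene of a family of glutamine-rich repeat proteins fell. In all 14 of 18028 genes tested, or 0.0777%, were called, that is, passed edgeR's quasi-likelihood test at a Benjamini-Hochberg adjusted p under 0.05, with 13 higher and 1 lower. The 13 were irg-3, B0272.4, fat-5, acs-7, maoc-1, mecr-2, acds-10, daf-22, dhrs-4, ceeh-2, acox-1.1, nhr-11 and pmp-2, and the gene that fell was abu-14. Each of the 14 had all 3 unfed libraries on one side of all 3 fed ones, as had 10.2% of all genes tested. At an unadjusted p under 0.05 stood 1428 genes, or 7.92%, of which 989 were higher and 439 lower. The calls rest on few libraries: 2 genes were called without fed A, and none without fed B or without fed C, where 1049 and 1243 genes stood at an unadjusted p under 0.05. A fit of only the 6 high-salt libraries called 1 gene, abu-14, while edgeR's exact test called 78 and DESeq2 94, all 14 among them. None of the 14 changed sign under any of the 25 other settings tried.

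**Figure D2:**
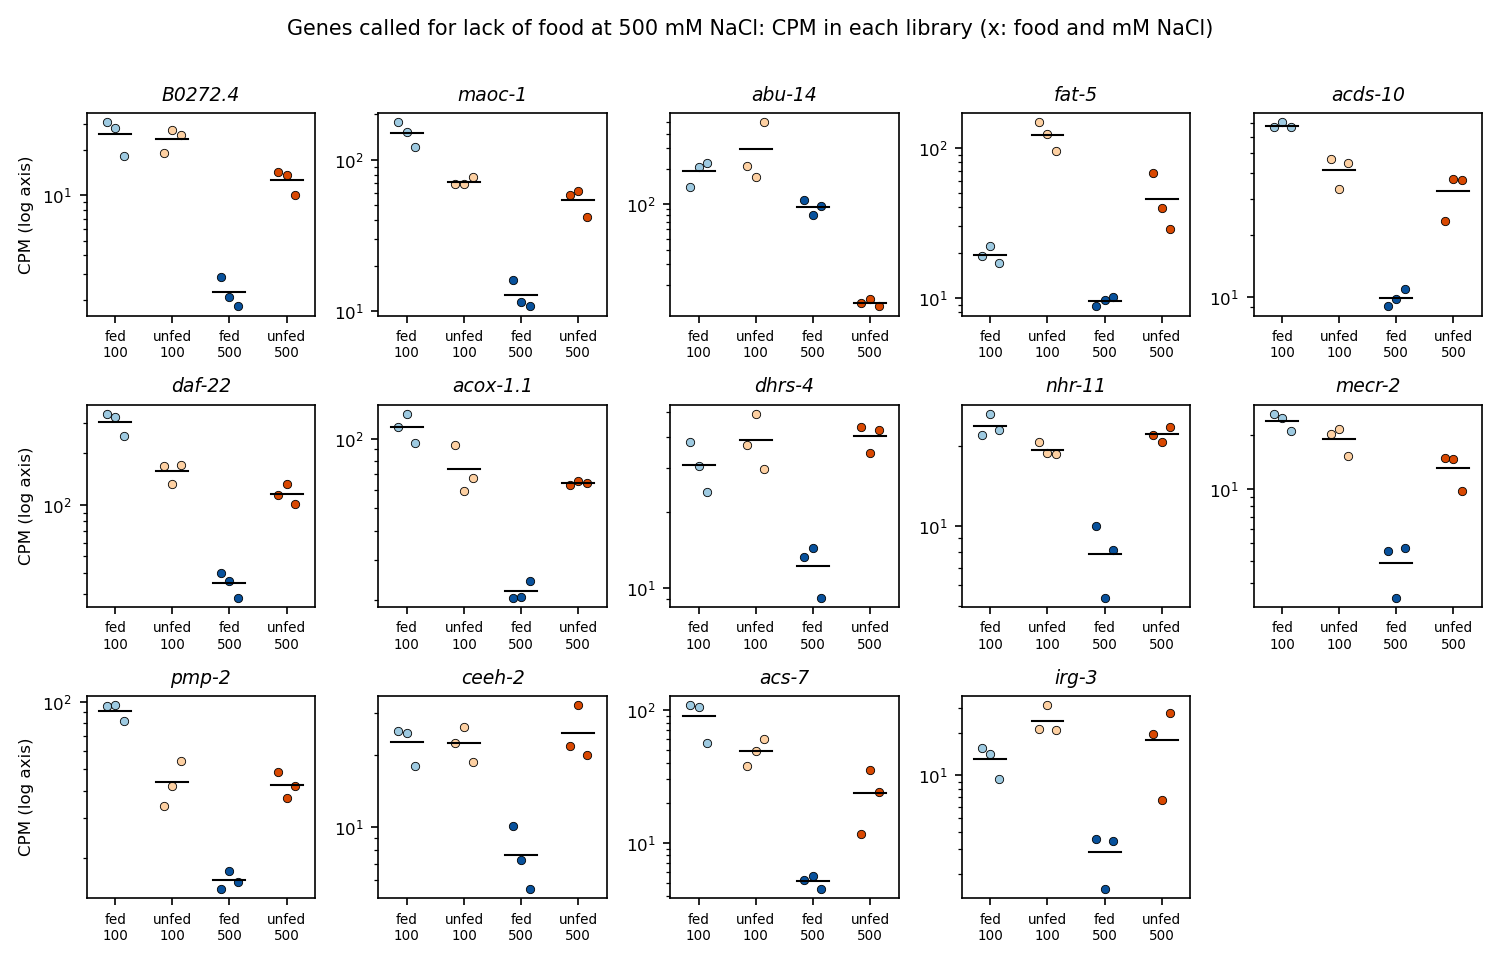
CPM on a log axis in each of the 12 libraries for the 14 genes called for lack of food at 500 mM NaCl, with 1 panel a gene; points are libraries A, B and C from left to right, bars are group means, and the x axis gives food and NaCl in mM. Dark blue (fed, 500 mM) lies below orange (unfed, 500 mM) in every panel but that of abu-14, where fed libraries sit at 79.7 to 108 and unfed at 13.1 to 15.1.

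The enzymes of the peroxisomal cycle were taken in the order of their reactions. Transcripts of acox-1.1 (F08A8.1), an acyl-CoA oxidase that opens the cycle, stood at 20.5, 20.7 and 24.4 CPM in fed A, B and C and at 63.2, 65.6 and 64.6 CPM in unfed A, B and C. The unfed libraries were all about equal and all above the fed ones, and acox-1.1 rose 2.96-fold (log2 fold change 1.56 ± 0.24 SE, adjusted p = 0.0228). Transcripts of maoc-1 (E04F6.3), the enoyl-CoA hydratase of the next step, stood at 16.02, 11.5 and 10.8 CPM in fed and 58.7, 62.6 and 41.9 CPM in unfed larvae. The groups did not overlap, with unfed C lowest among the unfed, and maoc-1 rose 4.23-fold (2.08 ± 0.27, adjusted p = 0.00668). Transcripts of dhs-28 (M03A8.1), the dehydrogenase of the cycle, stood at 32.6, 36.9 and 20.9 CPM in fed and 70.2, 85.5 and 56.8 CPM in unfed larvae. The groups were apart here too, with fed C and unfed C the lowest of their groups, but at 1.23 ± 0.27 dhs-28 did not pass the test (adjusted p = 0.128). Transcripts of daf-22 (Y57A10C.6), the thiolase that closes the cycle and is needed to make the dauer pheromone, stood at 39.9, 35.99 and 28.6 CPM in fed and 114, 131.3 and 101 CPM in unfed larvae. Every unfed library lay far above every fed one, and daf-22 rose 3.30-fold (1.72 ± 0.25, adjusted p = 0.0134). The lowest fed and the lowest unfed value of daf-22 were both those of replicate C.

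Among genes that carry substrates into the peroxisome or build the organelle, 1 was called. The half-transporter gene pmp-2 (C44B7.9), of the ABC family that brings fatty acids across the peroxisomal membrane, stood at 14.5, 17.5 and 15.6 CPM in fed and 48.5, 36.9 and 41.9 CPM in unfed larvae. It rose 2.67-fold (1.42 ± 0.24, adjusted p = 0.0376), with the groups well apart. Peroxins import enzymes into peroxisomes, and none of their genes was called. The membrane peroxin gene prx-13 (F32A5.6) stood at 11.02, 13.8 and 8.53 CPM in fed and 38.2, 28.5 and 19.3 CPM in unfed larvae, without overlap, at 1.35 ± 0.28 (adjusted p = 0.0912). The gene prx-6 (F39G3.7), for an ATPase that recycles the import receptor, was at 1.24 ± 0.29 (adjusted p = 0.184), and prx-5 (C34C6.6), for that receptor, at 0.38 ± 0.24 (adjusted p = 0.711). The peroxisomal catalase gene ctl-2 (Y54G11A.5) was at 0.68 ± 0.26 (adjusted p = 0.547), with unfed B the highest library at 54.5 CPM. The oxidase gene acox-3 (F58F9.7) was at 1.47 ± 0.32 (adjusted p = 0.128), and unfed A, at 21.8 CPM, was far below unfed B at 62.2 CPM.

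The peroxin genes prx-1 (C11H1.4), prx-2 (ZK809.7), prx-3 (C15H9.8), prx-10 (C34E10.4), prx-12 (F08B12.2) and prx-19 (F54F2.8) lay between 0.58 and 1.07 with adjusted p of 0.358 to 0.612. In each of these genes the unfed libraries lay above the fed ones. Among them, prx-12 stood at 7.74, 5.39 and 7.31 CPM in fed and 12.1, 16.95 and 12.8 CPM in unfed larvae. The enoyl-CoA hydratase gene ech-8 (F01G10.2) stood at 5.97, 4.42 and 5.28 CPM in fed and 12.9, 15.1 and 10.6 CPM in unfed larvae, at 1.298 ± 0.29 (adjusted p = 0.138). Of the other transporter genes, pmp-1 (C44B7.8) was at 0.62 ± 0.26 (adjusted p = 0.6), pmp-4 (T02D1.5) at 0.42 ± 0.41 (adjusted p = 0.808) and pmp-5 (T10H9.5) at -0.14 ± 0.38 (adjusted p = 0.933). The groups overlapped in pmp-4 and pmp-5 and not in pmp-1. The oxidase genes acox-1.5 (C48B4.1) and acox-1.6 (F59F4.1) were at 0.56 ± 0.32 (adjusted p = 0.684) and 0.67 ± 0.27 (adjusted p = 0.571), and their groups overlapped. The groups also overlapped in acs-20 (F28D1.9), at -0.02 ± 0.27 (adjusted p = 0.99), and in the low-count genes acox-1.3 (F08A8.3), at 0.76 ± 0.74 (adjusted p = 0.807), and ech-9 (F01G10.3), at 1.39 ± 0.66 (adjusted p = 0.625), where unfed A was the highest library. The peroxin genes prx-11 (C47B2.8) and prx-14 (R07H5.1) were at 0.22 ± 0.33 (adjusted p = 0.872) and 0.23 ± 0.24 (adjusted p = 0.818), also with overlap, and acox-1.4 (F08A8.4) was at 0.91 ± 0.77 (adjusted p = 0.783).

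The list of peroxisomal fatty-acid oxidation, like the others here, was chosen with earlier results of these data known. The shares given for it thus describe the list and are no test of enrichment. Of its 29 genes all 29 were tested, 4 rose and none fell, against 0.0721% and 0.00555% of all genes. At an unadjusted p under 0.05 stood 19 higher and none lower, against 5.49% and 2.44% of all genes. The unfed libraries lay above the fed ones without overlap in 18, against 6.61% of all genes, and below them in none, against 3.61%. The median log2 fold change of the list was 0.91 and that of all genes 0.15, and 27 of the 29 were above 0, all but pmp-5 and acs-20. The summed level of the list was 484, 472 and 416 CPM in fed A, B and C and 843, 986 and 843 CPM in unfed A, B and C. The sums of the groups were thus apart, and fed C was the lowest. The median was 0.76 without unfed A, 0.85 without fed C and 0.78 without both, and the longest transcripts of the members had a median of 2058 bases. The paralogs acox-1.1 to acox-1.4 could share reads, so the split among them is uncertain.

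**Figure D3:**
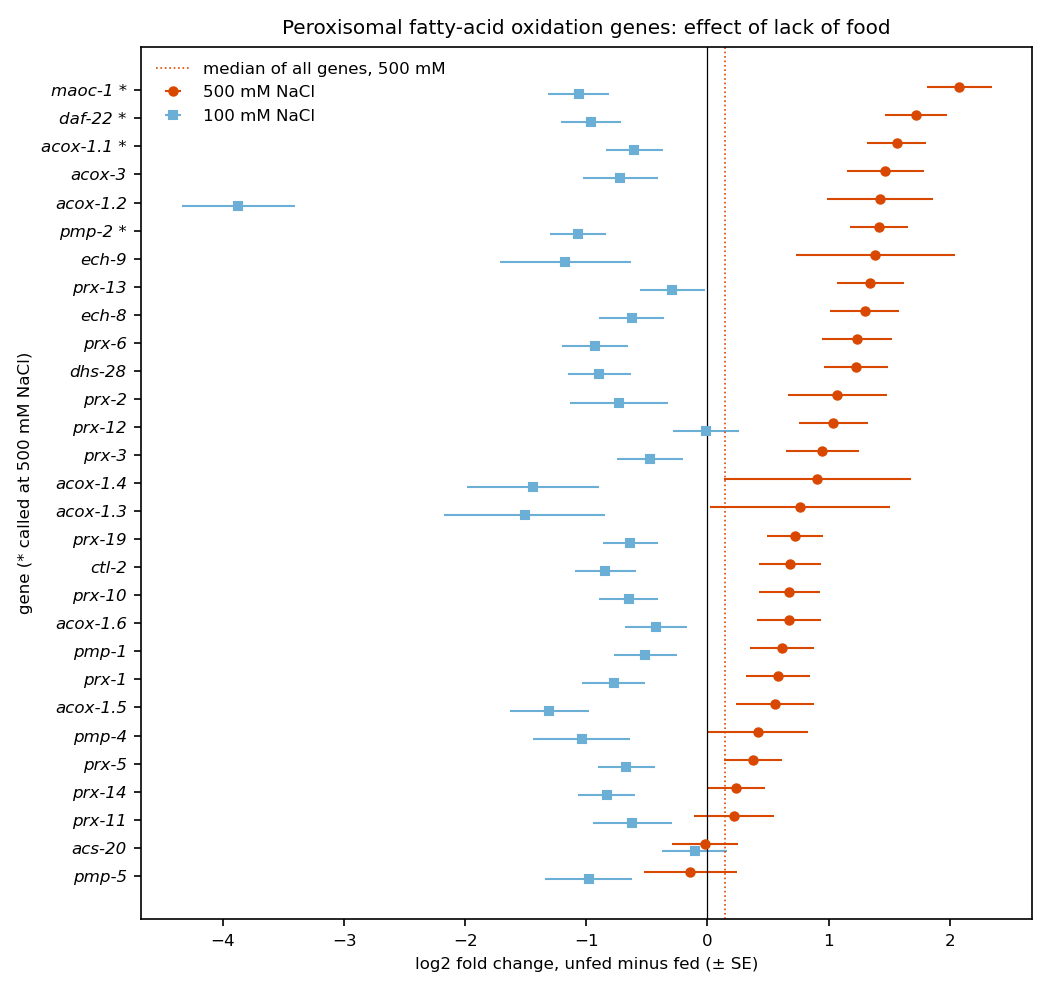
Log2 fold change ± SE, unfed minus fed, at 500 mM NaCl (orange circles) and 100 mM NaCl (blue squares) for the 29 genes of peroxisomal fatty-acid oxidation, ordered by the first; an asterisk marks a gene called at 500 mM and the dotted line is the median of all genes at 500 mM (0.15). At 500 mM 27 of 29 lie above 0 and at 100 mM all 29 lie below it.

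Other lipid genes among those called encode an activating enzyme, a desaturase and several oxidoreductases. The acyl-CoA synthetase gene acs-7 (C01G6.7), whose product couples fatty acids to coenzyme A, stood at 5.27, 5.58 and 4.47 CPM in fed and 11.5, 35.0 and 24.0 CPM in unfed larvae. The fed libraries were close together and unfed A was the lowest unfed library, and acs-7 rose 4.57-fold (2.19 ± 0.38, adjusted p = 0.0376). The desaturase gene fat-5 (W06D12.3), whose product makes palmitoleic acid, stood at 8.76, 9.64 and 10.2 CPM in fed and 67.6, 39.6 and 28.6 CPM in unfed larvae. The unfed libraries were spread but all above the fed ones, and fat-5 rose 4.76-fold (2.25 ± 0.31, adjusted p = 0.0089). The gene acds-10 (K09H11.1), by its name an acyl-CoA dehydrogenase, rose from 9.03, 9.76 and 10.97 CPM to 23.4, 37.5 and 37.1 CPM (1.73 ± 0.25, adjusted p = 0.0124). The gene mecr-2 (Y48A6B.9), named after the human enoyl-CoA reductase MECR, rose from 4.52, 2.49 and 4.67 CPM to 14.9, 14.7 and 9.76 CPM (1.78 ± 0.30, adjusted p = 0.0376). In both genes the groups were apart, with 1 unfed library below the other pair. The gene dhrs-4 (F54F3.4), which encodes a short-chain dehydrogenase similar to a peroxisomal human carbonyl reductase, rose from 13.2, 14.4 and 9.14 CPM to 43.5, 34.4 and 42.3 CPM (1.69 ± 0.27, adjusted p = 0.0292). The epoxide hydrolase gene ceeh-2 (K07C5.5), whose product acts on epoxides of fatty acids, rose from 10.1, 7.27 and 5.48 CPM to 21.9, 32.4 and 20.2 CPM (1.68 ± 0.29, adjusted p = 0.0376). Here too every unfed library exceeded every fed one.

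The genes acds-10, mecr-2, dhrs-4 and ceeh-2 are on none of the lipid lists. They were placed with the lipid genes by name or product after they were called. The last 3 genes that rose are on none of the lipid lists either, and a part in lipid oxidation was not examined for them. The gene B0272.4, to which no role is given here, had the smallest p of all genes and rose from 2.85, 2.12 and 1.83 CPM to 14.3, 13.7 and 10.1 CPM (2.44 ± 0.30, adjusted p = 0.00668). The nuclear hormone receptor gene nhr-11 (ZC410.1) rose from 10.0, 5.39 and 8.12 CPM to 22.1, 20.8 and 23.7 CPM (1.503 ± 0.25, adjusted p = 0.0376). The infection response gene irg-3 (F53E10.4), known from animals exposed to pathogens, rose from 3.55, 1.58 and 3.45 CPM to 19.6, 6.74 and 27.4 CPM (2.67 ± 0.46, adjusted p = 0.0386). The unfed values of irg-3 were widely spread, with unfed B far below the other pair, while those of nhr-11 were close together.

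Lists of related metabolism held single called genes. Of 29 genes listed for mitochondrial fatty-acid oxidation 1 rose, acs-7, against 0.0721% of all genes, and none fell. Whether the product of acs-7 acts in mitochondria was not tested. At an unadjusted p under 0.05 stood 8 of the 29 higher and none lower, against 5.49% and 2.44% of all genes. The list median was 0.38, beside 0.15 for all genes. Among the others were the acyl-CoA dehydrogenase gene acdh-12 (E04F6.5) at 1.102 ± 0.26 (adjusted p = 0.184) and the carnitine palmitoyltransferase gene cpt-5 (F09F3.9), whose product serves the entry of fatty acids into mitochondria, at 1.57 ± 0.42 (adjusted p = 0.342). The acyl-CoA synthetase gene acs-2 (F28F8.2), widely used as a fasting marker, stood at 39.7, 64.5 and 35.9 CPM in fed and 21.2, 30.3 and 4.39 CPM in unfed larvae. It was thus lower in every unfed library, and did not pass the test (-1.33 ± 0.68, adjusted p = 0.665). Of 26 genes of fatty-acid synthesis, desaturation and elongation 1 rose, fat-5, and none fell, against 0.0721% and 0.00555% of all genes. Their median was 0.42, beside 0.15 for all genes. The gene dgat-2 (F59A1.10), for the last step of triglyceride synthesis, stood at 13.98, 11.5 and 11.98 CPM in fed and 29.8, 37.9 and 25.6 CPM in unfed larvae, at 1.31 ± 0.27 (adjusted p = 0.0912). The lipase gene lips-10 (F14E5.5) was at 1.42 ± 0.28 (adjusted p = 0.0667), and none of 24 lipase genes was called. Of 13 genes of the glyoxylate cycle, gluconeogenesis and glycogen none was called and 12 were below 0, with a median of -0.37. The glyoxylate cycle gene icl-1 (C05E4.9), which turns products of fat oxidation toward sugar, stood at 485, 545 and 418 CPM in fed and 221, 232 and 118 CPM in unfed larvae. The groups did not overlap, and at -1.34 ± 0.41 icl-1 did not pass the test (adjusted p = 0.431).

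The gene that fell was abu-14 (ZK1067.7), of a family of glutamine-rich repeat proteins with members in the lining of the pharynx. It stood at 108, 79.7 and 94.6 CPM in fed and 13.9, 15.1 and 13.1 CPM in unfed larvae. The unfed values were nearly equal and every one far below the fed ones, a 6.68-fold difference (-2.74 ± 0.37, adjusted p = 0.0089). A list of its family, the abu and pqn genes, was added after the values were seen. Of its 62 tested genes 1 fell, abu-14 itself, and none rose, against 0.00555% and 0.0721% of all genes. In 9 the unfed libraries lay all below the fed ones, against 3.61% of all genes. The list had a median of -0.25, or -0.24 without unfed A and -0.10 without fed C. Its members abu-13 (F57B9.9) and abu-11 (T01D1.6) were at -1.66 ± 0.41 (adjusted p = 0.272) and -1.26 ± 0.36 (adjusted p = 0.37). Members share repeats, so reads could be split among them.

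Below the threshold, the genes of smallest p among those lower without food and without overlap were named too. The gene idpc-1 (Y47D3B.6), of no role given here, was at -2.296 ± 0.43 (adjusted p = 0.0597), with 28.1, 33.1 and 36.8 CPM in fed and 3.57, 9.76 and 6.18 CPM in unfed larvae. The gene aass-1 (R02D3.1), which encodes an enzyme of lysine breakdown, was at -1.39 ± 0.27 (adjusted p = 0.0665), and the alcohol dehydrogenase gene adh-1 (K12G11.3) at -2.09 ± 0.42 (adjusted p = 0.0847). The cuticlin gene cut-3 (F22B5.3), which encodes a protein of the cuticle, was at -2.03 ± 0.41 (adjusted p = 0.0905), with 28.7, 41.1 and 35.7 CPM in fed and 13.5, 6.42 and 6.30 CPM in unfed larvae. In each of these genes every unfed library lay below every fed one. The collagen gene col-98 (F14F7.1) was at -1.59 ± 0.36 (adjusted p = 0.176). At -1.26 ± 0.30 stood gad-3 (B0222.9), of no role given here (adjusted p = 0.208). The hedgehog-like gene grl-16 (Y65B4BR.6) was at -1.64 ± 0.40 (adjusted p = 0.255). F13D12.3 was at -1.35 ± 0.29 (adjusted p = 0.128) and Y38E10A.14 at -2.37 ± 0.53 (adjusted p = 0.184).

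Whether lack of food acts alike at both salt levels was tested as a difference of the food effects, 500 minus 100 mM NaCl. At 100 mM 1384 genes, or 7.68%, were called, and the groups did not overlap in 41.4%. The effects differed in 360 genes, or 2%, with 282 higher and 78 lower at 500 mM, and under upper-quartile scaling in 379, with 185 higher and 194 lower, where the median difference of all genes shifted from -0.04 to -0.30. Of the 14 genes called at 500 mM 11 were among the 360. The 14 were picked by their effect at 500 mM, which is part of the difference, so this overlap is not separate support. Transcripts of daf-22 averaged 305 ± 46.5 CPM (SD, n = 3) in fed and 157 ± 21.7 CPM in unfed low-salt larvae, a log2 fold change of -0.96 ± 0.25 (adjusted p = 0.0294), so its food effect differed by 2.68 ± 0.35 (adjusted p = 0.00412). Transcripts of maoc-1 averaged 150 ± 27.8 CPM in fed and 71.7 ± 4.46 CPM in unfed low-salt larvae, at -1.06 ± 0.25, and differed by 3.14 ± 0.37 (adjusted p = 0.00136). These genes thus fell without food at low salt and rose without food at high salt, and fed high-salt larvae had the lowest level of the 4 groups. Only the fed low-salt larvae had food without high salt, and the part of growth or stage in these differences was not tested. The desaturase gene fat-5 rose at both levels, by 2.67 ± 0.31 at 100 mM, and a difference of -0.42 ± 0.42 did not pass (adjusted p = 0.647). The differences of irg-3 and dhrs-4 did not pass either, at 1.76 ± 0.61 (adjusted p = 0.138) and 1.37 ± 0.37 (adjusted p = 0.0693).

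Across the 29 peroxisomal genes the food effect was above 0 in 27 at 500 mM and below 0 in all 29 at 100 mM, where 7 fell, against 4.11% of all genes. The difference was called higher in 13 of 29 and lower in none, against 1.56% and 0.433% of all genes, with a median of 1.64. Group means were highest in fed low-salt and lowest in fed high-salt larvae in 20 of 29, against 16.5% of all genes. The oxidase gene acox-1.2 (F08A8.2), whose food effect differed most among the 29, was not one of the 20, since its lowest group was unfed low-salt larvae. It had means of 64.1 ± 47.8 CPM in fed and 4.37 ± 1.32 CPM in unfed low-salt larvae. At 500 mM it stood at 5.97, 7.58 and 9.34 CPM in fed and 25.9, 18.8 and 15.997 CPM in unfed larvae. Its effect was called at 100 mM (-3.87 ± 0.47, adjusted p = 6.63e-04) and not at 500 mM (1.43 ± 0.44, adjusted p = 0.44), and the difference was 5.30 ± 0.63 (adjusted p = 0.00151).

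**Figure D4:**
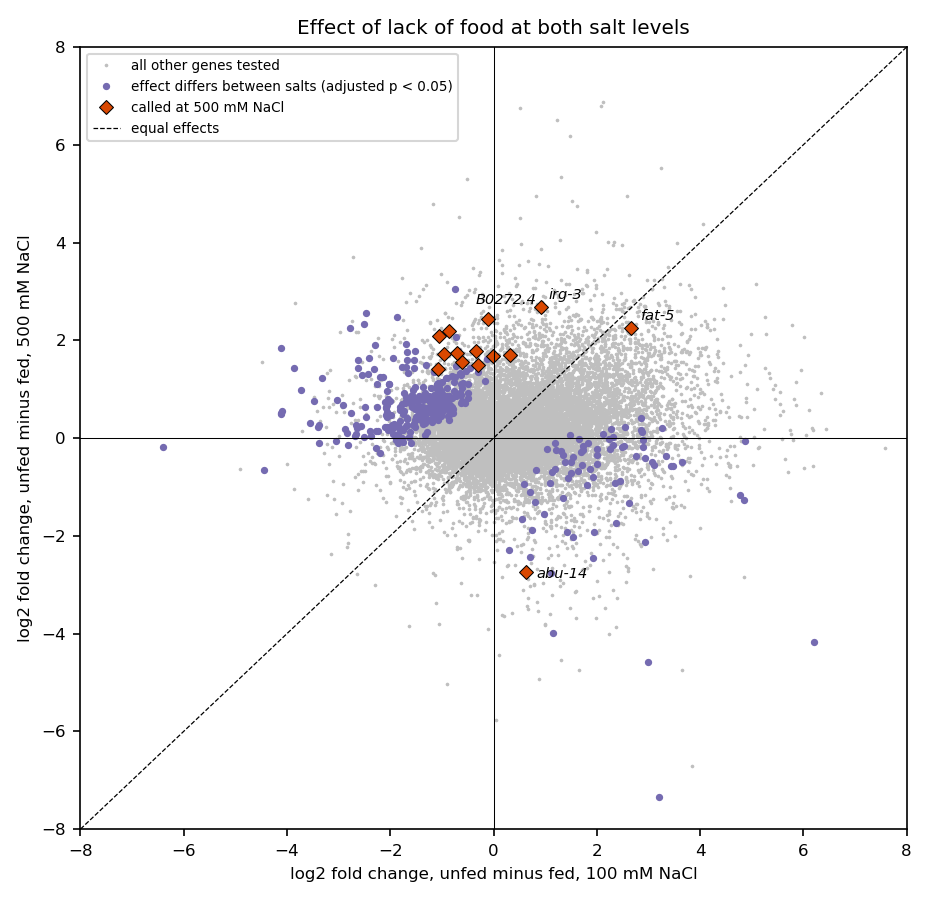
Log2 fold change, unfed minus fed, at 100 mM (x axis) and 500 mM NaCl (y axis) for the 18028 genes tested; purple points are the 360 genes whose effect differs between the salts, orange diamonds the 14 called at 500 mM, and the dashed line marks equal effects. Of the 13 diamonds above 0, 10 lie left of 0 on the x axis, and fat-5 lies close to the dashed line.

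Among genes that averaged at least 10 CPM over the 12 libraries and whose groups did not overlap at 500 mM, the widest called differences upward were those of irg-8 (ZK6.11), acox-1.2, elo-5 (F41H10.7), dct-16 (Y38H6C.1) and dgat-2. The infection response gene irg-8 averaged 591 ± 53.4 CPM in fed and 34.1 ± 38.4 CPM in unfed low-salt larvae, against 3.62 ± 0.917 CPM and 12.7 ± 4.19 CPM at 500 mM. The elongase gene elo-5, whose product makes branched-chain fatty acids, was at -3.04 ± 0.41 at 100 mM and 0.77 ± 0.38 at 500 mM. For irg-8, fed low-salt larvae were thus the highest group. The widest downward were those of scl-2 (F49E11.10), col-165 (F14H12.1), cut-3, abu-14 and F47H4.2. The gene cut-3 averaged 1.91 ± 0.236 CPM in fed and 5.59 ± 3.66 CPM in unfed low-salt larvae, below the 35.2 ± 6.24 CPM of fed high-salt larvae, and abu-14 averaged 190 ± 45.8 CPM and 294 ± 178 CPM at 100 mM. Only the fed high-salt group of cut-3 was thus high, and only the unfed high-salt group of abu-14 low.

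Of 48 gene lists 6 held a called gene at 500 mM: those of peroxisomal and mitochondrial fatty-acid oxidation and of fatty-acid synthesis, the 253 nuclear hormone receptors (nhr-11), the 45 other pathogen-response genes (irg-3) and the 27 genes known to be raised by DAF-16 (fat-5). In the other 42 none was called. All 78 tested ribosomal protein genes were above 0, as were 60.98% of all genes, and 23 were higher without overlap, against 6.61% of all genes. Their median was 0.36, or 0.15 without fed C. Their transcripts are short, with a median of 507 bases, and fed C was low in short transcripts, with a summed level of 35041 CPM against 62660 to 76310 CPM in the other 5 libraries. Of 67 UDP-glucuronosyltransferase genes, whose products tag small molecules for removal, 16 stood higher at an unadjusted p under 0.05 and none lower, against 5.49% and 2.44% of all genes. Their median was 0.37, or 0.16 without unfed A, where that of all genes was 0.02, beside 0.15 with all libraries. The first of them, ugt-66 (C23G10.6), stood at 15.3, 14.1 and 21.1 CPM in fed and 49.97, 38.1 and 95.7 CPM in unfed larvae, at 1.88 ± 0.34 (adjusted p = 0.0588). The glutathione peroxidase gene gpx-1 (F26E4.12), which encodes an enzyme that removes lipid peroxides, stood at 6.34, 4.30 and 2.23 CPM in fed and 24.4, 11.8 and 15.1 CPM in unfed larvae, at 1.92 ± 0.37 (adjusted p = 0.0668). It was the nearest to the threshold of 32 oxidative-stress genes, with a list median of 0.18 that turned to -0.01 without fed C. Of 38 genes of insulin, TOR and AMPK signalling 31 were below 0, with a median of -0.23 that was -0.03 without unfed A, and the insulin receptor gene daf-2 (Y55D5A.5) stood at 207, 314 and 292 CPM in fed and 71.5, 189 and 150 CPM in unfed larvae. The groups of daf-2 were apart, with unfed A lowest, and the test was not passed (-0.98 ± 0.32, adjusted p = 0.469). The C-type lectin genes, 184 tested, had a median of 0.51 that turned to -0.35 without unfed A, and the 164 cuticle collagens one of 0.19 that turned to -0.44. The FMRFamide-like neuropeptide genes, 30 tested, had a median of 0.34 at 500 mM, or 0.15 without fed C. Their median at 100 mM was 1.495, and there 24 rose, against 3.57% of all genes. The difference, 500 minus 100 mM, was called lower in 1 of them and higher in none, against 0.433% and 1.56% of all genes. Its median was -1.13, beside -0.04 for all genes.

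**Figure D5:**
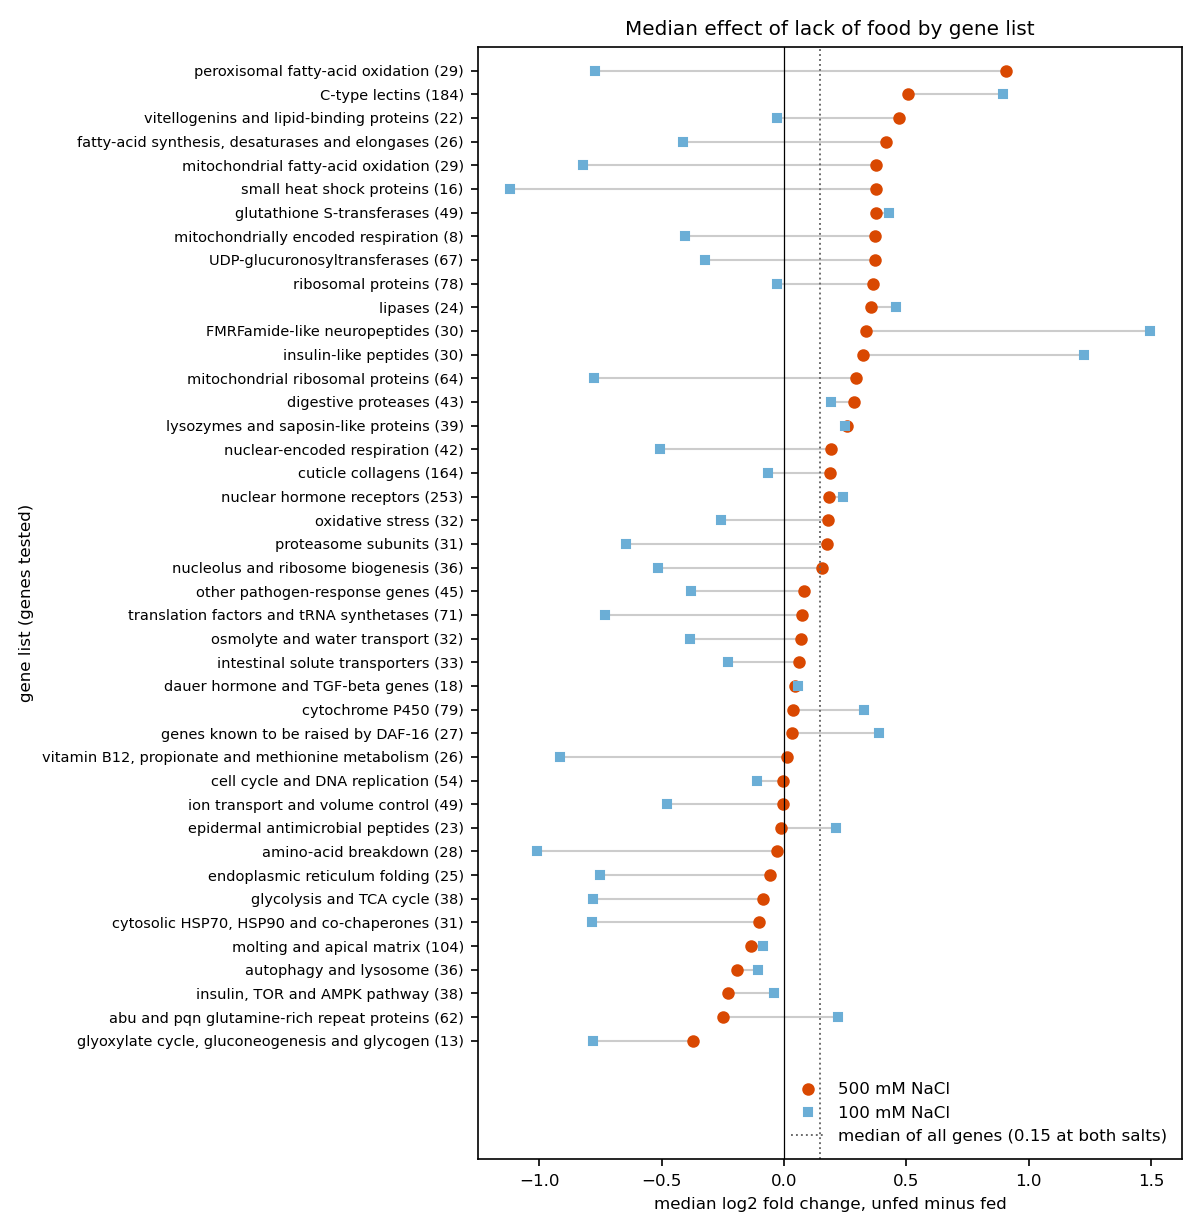
Median log2 fold change, unfed minus fed, of each gene list (tissue and stage markers left out) at 500 mM (orange circles) and 100 mM NaCl (blue squares), with the number of genes tested in brackets; the dotted line is the median of all genes. The peroxisomal list has the highest median at 500 mM (0.91) and lies at -0.77 at 100 mM, while the neuropeptide list is highest at 100 mM (1.495).

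Genes known for starvation, insulin signalling and osmotic stress were examined as focal genes, and none was called at 500 mM. The transcription factor gene daf-16 (R13H8.1), which acts below the insulin receptor, was at 0.07 ± 0.26 (adjusted p = 0.949), and its target sod-3 (C08A9.1) at 0.23 ± 0.50 (adjusted p = 0.913). The gene gpdh-1 (F47G4.3), for an enzyme of glycerol synthesis, stood at 37.04, 65.8 and 26.6 CPM in fed and 31.6, 39.5 and 57.4 CPM in unfed larvae. The groups overlapped throughout (-0.02 ± 0.34, adjusted p = 0.992), as did those of hmit-1.1 (Y51A2D.4), for a transporter of myo-inositol, at -0.03 ± 0.32 (adjusted p = 0.984). The insulin-like gene daf-28 (Y116F11B.1) was at -0.25 ± 0.36 (adjusted p = 0.866), the peptide transporter gene pept-1 (K04E7.2) at 0.62 ± 0.46 (adjusted p = 0.753) and rpl-3 (F13B10.2) at 0.11 ± 0.26 (adjusted p = 0.924). The lysozyme gene lys-4 (F58B3.1) was at 1.44 ± 0.43 (adjusted p = 0.421) and acdh-1 (C55B7.4), for an enzyme of propionate breakdown, at -1.16 ± 0.45 (adjusted p = 0.553), both without overlap of the groups. The desaturase gene fat-7 did not pass the count filter.

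Markers of tissues and stages held no called gene. Muscle markers summed to 23955 to 30807 CPM in fed and 13198 to 25103 CPM in unfed larvae, with unfed A lowest, and hlh-1 was at 0 in all 6 libraries. The long muscle genes ttn-1 (W06H8.8) and unc-22 (ZK617.1) were at -1.19 ± 0.41 (adjusted p = 0.489) and -1.25 ± 0.50 (adjusted p = 0.578), and fed C was the highest and unfed A the lowest library in both. Of the 29 muscle markers tested 14 were above 0 and 15 below, with a median of -0.03, or 0.16 without unfed A and -0.12 without fed C. In 7 of them the unfed libraries lay all below the fed ones and in none all above, against 3.61% and 6.61% of all genes. Epidermis markers summed to 2970 to 3937 CPM in fed and 1494 to 2806 CPM in unfed larvae, without overlap, with a median of -0.32, or -0.12 without fed C. Intestine markers overlapped, at 2016 to 2312 CPM in fed and 1448 to 2445 CPM in unfed larvae, as did those of germline, embryo and neurons. Markers of later stages summed to 11.3 to 26.4 CPM and 5.77 to 56.2 CPM, with msp-19, msp-51 and msp-77 at 0 in all 6. The part of these sums in the results was not tested.

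In the authors' deposited table for high salt, an edgeR exact test over 16025 genes, 85 genes had a false discovery rate under 0.05, with 47 higher and 38 lower without food. In the authors' deposited table all 14 genes called here were among the 85, with maoc-1 at a log2 fold change of 2.07 and abu-14 at -2.75.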

How the data were processed

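RNA of whole larvae was sequenced in 12 libraries, in 4 groups of 3. Reads were counted per gene by the authors, whose tools, per the submitters' processing notes, were Bowtie 1.1.2, HTSeq, Cuffdiff and edgeR. For the counting settings and the genome build, the sources used here give nothing. For high salt, the authors' deposited table holds log2 fold changes and p-values of an edgeR exact test. The deposited counts were tested here with edgeR 4.0.16 in R 4.3.3 (quasi-likelihood F-test, robust, TMM scaling) over all 12 libraries, with 1 coefficient for each group and a difference of food effects between salts. Genes passed with at least 10 counts in enough libraries and 15 in total, and p was adjusted over 18028 genes. Levels in CPM were scaled to 1e+06 by library size and TMM factor, and the SE is the log2 fold change divided by the root of F. The test was tried on simulated data. DESeq2 1.42.0, other scalings and filters and left-out libraries were the alternatives. Names came from RefSeq (WBcel235) for 43592 of 44968 features.

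The rule named up to 10 called genes in each direction with a mean of at least 10 CPM and no overlap, filled by smallest p, up to 4 genes of smallest p for each list, 12 focal genes and the 5 widest called differences each way, with a mean of at least 10 CPM over 12 libraries and no overlap at 500 mM. Called genes of lower mean, the remaining peroxisomal genes and abu members were added after their values were seen. Members and lists were chosen with earlier results of these data known, and the abu and pqn list was added after values were seen. P-values set the difference of group means against the spread between the 3 samples of a group. That spread was estimated jointly over the 4 groups in all 12 libraries, with information shared across genes. The p-values at 500 mM thus rest in part on the spread of the low-salt libraries. A fit of only the 6 high-salt libraries called 1 gene in place of 14, and 0 peroxisomal genes in place of 4. Depth is the number of reads on genes, rRNA genes included, and counting error is part of that spread.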

Additional observations from a re-analysis of the deposited data

Results flagged for a closer look

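The food effect differed between 500 and 100 mM NaCl in 360 genes by edgeR's quasi-likelihood test of the difference itself, and the 33 of them that are named in the text are given here. The values below are log2 differences, the effect at 500 mM minus that at 100 mM.

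Of the 33, 27 had a higher effect at 500 mM. Among genes of peroxisomal oxidation these were acox-1.2 at 5.30, maoc-1 at 3.14, daf-22 at 2.68, pmp-2 at 2.48, acox-3 at 2.19, acox-1.1 and prx-6 at 2.17 each, dhs-28 at 2.12, ech-8 at 1.92, acox-1.5 at 1.86, prx-13 at 1.64, ctl-2 at 1.52 and prx-19 at 1.36. Among other genes placed with lipids by list, name or product they were elo-5 at 3.81, dgat-2 at 3.74, acs-7 at 3.07, elo-6 at 2.46, acds-10 at 2.44, mecr-2 at 2.11, hpo-8 at 1.72, ceeh-2 at 1.68 and acdh-12 at 1.60. The others were irg-8 at 5.97, dct-16 at 3.74, B0272.4 at 2.54, the aquaporin gene aqp-4 at 1.92 and nhr-11 at 1.80.

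In 6 genes the effect was lower at 500 mM. These were idpc-1 at -2.60, F47H4.2 at -3.33, abu-14 at -3.37, cut-3 at -3.57, col-165 at -3.85 and scl-2 at -4.11. In scl-2 unfed A had no reads at 500 mM, and its fitted value depends on the prior count.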

How the results depend on the processing

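None of the 14 called genes changed sign under the 25 alternatives. The 14 calls at 500 mM became 30 with a replicate block, 207 with no count filter, 94 by DESeq2, 78 by edgeR's exact test, 9 without unfed A and fed C, and 1 with only the 6 high-salt libraries, as with 2 alternatives chosen after seeing the data, that fit with rRNA genes removed (1) or without unfed A (1). Leaving out 1 library gave 0 to 32, with 0 without fed B or fed C, 2 without fed A and 32 without unfed B at 500 mM, 9 without unfed C, and at 100 mM 6 and 7 without fed A and B and 7 without unfed A. RLE scaling gave 14 and upper-quartile scaling 13 (10 higher, 3 lower), and removal of rRNA genes gave 19. The 360 differing effects became 585 with the replicate block, 1019 with no filter, 606 over 5 CPM in 3 libraries, 1251 by DESeq2, 630 without unfed A and fed C, and 63 to 967 without 1 library (967 without unfed A at 500 mM). The exact test gives no value for a difference. Deviations from group means at 500 mM were compared between fed and unfed libraries of the same letter (r of -0.03, 0.29 and -0.06 for A, B and C). Pairs of unlike letters ran from -0.32 to 0.23. This check covers only the 500 mM libraries and cannot exclude a pairing, so the replicate block above is given only as a number. Of the peroxisomal genes 0 to 9 were called over these settings. The cause of these shifts was not tested. Depth limits genes near the count minimum.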
